A study of Homo sapiens with 12 samples.

Results

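The genes described here are the microRNA processing and silencing machinery, 10 genes named by their role: DROSHA, DGCR8, XPO5, DICER1, AGO1, AGO2, AGO3, TNRC6A, TNRC6B and TNRC6C. Each was found in both deposited tables by its symbol, so they make up 10 of the 58174 genes listed. The study lowered IGF2BP1, an RNA-binding protein of fetal tissues and tumours that protects bound mRNAs from decay, and sequenced poly-A RNA. Here the cells were HepG2, a liver cancer line, and BE(2)-C, a neuroblastoma line. In each line, 3 libraries came from cells given a control siRNA (siC) and 3 from cells given siRNAs against IGF2BP1 (siI1), all harvested 72 h after transfection, which makes 12 libraries. BE(2)-C cells were given a higher siRNA concentration and were grown in another medium. The cell line, the amount of siRNA and the medium therefore cannot be told apart. The question asked of each line was which of these mRNAs differed between siI1 and siC, and then whether the difference itself differed between the lines.

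Levels are in FPKM, the number of reads scaled to gene length and to library size, so that genes can be compared per length. The 2 tables were normalized separately, so no level was tested between the lines. Reads assigned to genes numbered 13465944 to 15176939 per library in HepG2 siC (median 14592537) and 13398903 to 14858343 in HepG2 siI1 (median 13838226). They numbered 12852988 to 14662575 in BE(2)-C siC (median 13872286) and 13649325 to 15721210 in BE(2)-C siI1 (median 13920803). A gene was called when its limma p, adjusted over all tested genes by Benjamini and Hochberg, was below 0.05, and only called genes are said to have risen or fallen. On simulated data this test missed a part of the planted changes, and fewer than first required were found. Its false calls over all genes exceeded the nominal share, most of them among genes with few reads. The shares of all genes called are thus approximate. The simulation changed far fewer genes than were called here, all by the same size and with the same scatter setting. Its rates need not hold in these data. Counts at an unadjusted p below 0.05 come with no share of all genes, so they cannot be judged as many or few. Every member had at least 140 reads in each library. Changes are log2 fold changes of siI1 over siC with their standard error (SE).

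MicroRNAs are cut from long transcripts in the nucleus by the Microprocessor, which joins the nuclease DROSHA to its RNA-binding partner DGCR8. Exportin-5, the product of XPO5, carries the hairpin precursors to the cytoplasm, where DICER1 cuts them to duplexes. Argonaute proteins hold one strand as a guide, and the TNRC6 proteins connect Argonaute on a target mRNA to the enzymes that shorten its tail and remove its cap.

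IGF2BP1 itself (ENSG00000159217, hg38 chr17:48997385-49056145) stood at 48.5, 46.6 and 50.8 FPKM in the HepG2 siC libraries and at 12.6, 10.7 and 10.7 FPKM in the siI1 libraries. In the BE(2)-C libraries it stood at 21.3, 20.6 and 21.6 FPKM with siC and at 4.85, 4.75 and 4.87 FPKM with siI1. The groups were far apart in both lines. By limma it fell in HepG2 (log2 SE 0.08, adjusted p = 7.8e-06), where siC was 4.30-fold siI1, and in BE(2)-C (log2 SE 0.05, adjusted p = 1.5e-05), where siC was 4.39-fold siI1. The knockdown did not differ detectably in size between the lines, with a difference of -0.02 (95% interval -0.22 to 0.19).

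The lines carried the markers of their origin. All 6 hepatic markers passed the filter in HepG2, where they summed to 6910 to 7022 FPKM per library with siC and 11500 to 13313 FPKM with siI1, with ALB the most abundant. They summed to at most 0.228 FPKM in BE(2)-C, where AFP and HNF4A were at 0 in all 6 libraries. All 6 sympathoadrenal markers passed in BE(2)-C, summing to 2605 to 2783 FPKM with siC and 2594 to 2694 FPKM with siI1, with MYCN the most abundant. In HepG2 they summed to at most 0.269 FPKM, with HAND2 at 0 in all 6 libraries. The markers moved with the knockdown. In HepG2, 4 of 6 rose, among them APOA1 by 1.70 and ALB by 0.95, and 2 fell, TTR by 0.77 and AFP by 0.59. Over all tested genes 21.9% were called higher and 23.0% lower in HepG2, and 13.3% and 14.8% in BE(2)-C. Of the 6 sympathoadrenal markers 4 fell in BE(2)-C, among them HAND2 by 0.73 and PHOX2A by 0.40, and limma called 0 of 6 higher, with 1 higher at an unadjusted p below 0.05 and 1 by limma voom. The 4 markers listed for other cell types summed to 61.0 to 67.4 FPKM in HepG2 siC and 94.6 to 111.7 FPKM in siI1. Nearly all of it was EPCAM, a marker of epithelium, which rose by 0.72, the one called of 3 tested. The HepG2 means with siC and siI1 were 0.24 and 0.37 FPKM for COL1A1, 0.09 and 0.09 for PECAM1, and 0 and 0.02 for PTPRC. In BE(2)-C the 4 markers summed to 0.516 to 1.62 FPKM, mostly COL1A1, with PTPRC at 0 in all libraries of that line. There limma called 0 of 2 tested genes, with 0 at an unadjusted p below 0.05 and 1 by limma voom. The part of these shifts in the results for the machinery was not tested. In such bulk samples, fewer cells with an mRNA and less of it per cell cannot be told apart.

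One library stood apart. Over the 11247 genes with at least 1 FPKM in every HepG2 library, siI1 replicate 1 differed from the mean of the other siI1 libraries with a standard deviation of 0.284 on the log2 scale, against 0.169 to 0.205 for the other 5 HepG2 libraries. The 6 BE(2)-C libraries ran from 0.180 to 0.220 over the 10961 genes that met the same limit in that line. Its values ran with gene length, with a median of -0.19 in the shortest of 4 equal length classes of these genes and 0.16 in the longest. For 8 of the 10 members it held the highest value of its group, so members whose call or size of change depends on it are also given without it. All 13 mitochondrial mRNAs had 0 reads in all 12 libraries, which leaves no mitochondrial share as a sign of RNA quality.

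**Figure D1:**
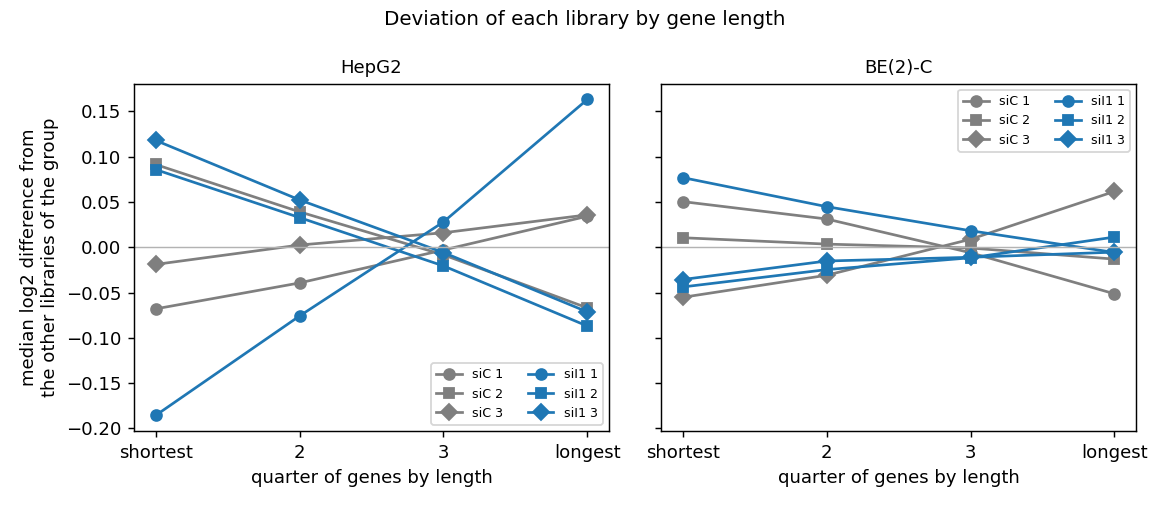
Median log2 difference of each library from the other libraries of its group (vertical axis), for genes in 4 equal classes of gene length (horizontal axis), with 1 line per library. HepG2 siI1 replicate 1 runs from -0.19 in the shortest class to 0.16 in the longest.

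In HepG2, AGO2, AGO1 and DROSHA fell and no member was called higher. Limma called 3 of 10 members lower, where 23.0% of the 19436 tested genes were lower, and 0 of 10 higher, where 21.9% were higher. At an unadjusted p below 0.05, 1 member (TNRC6C) was higher, and limma voom on recovered reads called that 1 as well. Without siI1 replicate 1 the count of lower members was 5, since XPO5 and DICER1 passed too, while over all genes the lower calls went from 4463 to 4973 of 19436. The members' median change was -0.11, against 0.01 over all tested genes. All siI1 values lay below all siC values for 4 of 10 members, where 27.8% of tested genes did. They lay above for 2, where 28% did.

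In BE(2)-C, TNRC6C, DICER1 and XPO5 rose and no member was called lower. Limma called 3 of 10 members higher, where 13.3% of the 18656 tested genes were higher, and 0 of 10 lower, where 14.8% were lower. At an unadjusted p below 0.05, 2 members (DROSHA and AGO1) were lower, and limma voom called those 2 lower and 6 higher, adding AGO2, AGO3 and TNRC6A. Without siI1 replicate 1 DROSHA was called lower at -0.23, and without siC replicate 3 AGO2 (0.24) and TNRC6A (0.39) were called higher, which made 5, while over all genes the higher calls went from 2489 to 2088 of 18656. The members' median change was 0.22, against 0.02 over all tested genes. All siI1 values lay below all siC values for 2 of 10 members, where 22.4% of tested genes did. They lay above for 5, where 22.6% did.

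The change differed between the lines for AGO2, XPO5, TNRC6C and DICER1, each lying higher in BE(2)-C than in HepG2. In the limma contrast of BE(2)-C minus HepG2, 4 of 10 members were called higher, where 21.7% of the 15362 tested genes were, and 0 lower, where 18.5% were. At an unadjusted p below 0.05, 7 were higher and 0 lower, and limma voom called 6 higher, adding AGO1 and AGO3, and 0 lower. Over all 15362 genes limma voom called 3498 higher and 2935 lower. No share of all genes is given at an unadjusted p, so the 7 cannot be judged as many or few. The members' median difference was 0.39, against 0.04 over all tested genes. All 10 members belong to the longest of 4 equal classes of tested genes by exon length. Limma called 37.0% of that class lower in HepG2 and 18.6% higher, while for BE(2)-C these shares were 12.6% and 19.3%. The median change of that class was -0.17 in HepG2 and 0.07 in BE(2)-C. The part of gene length in the members' changes was not tested.

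**Figure D2:**
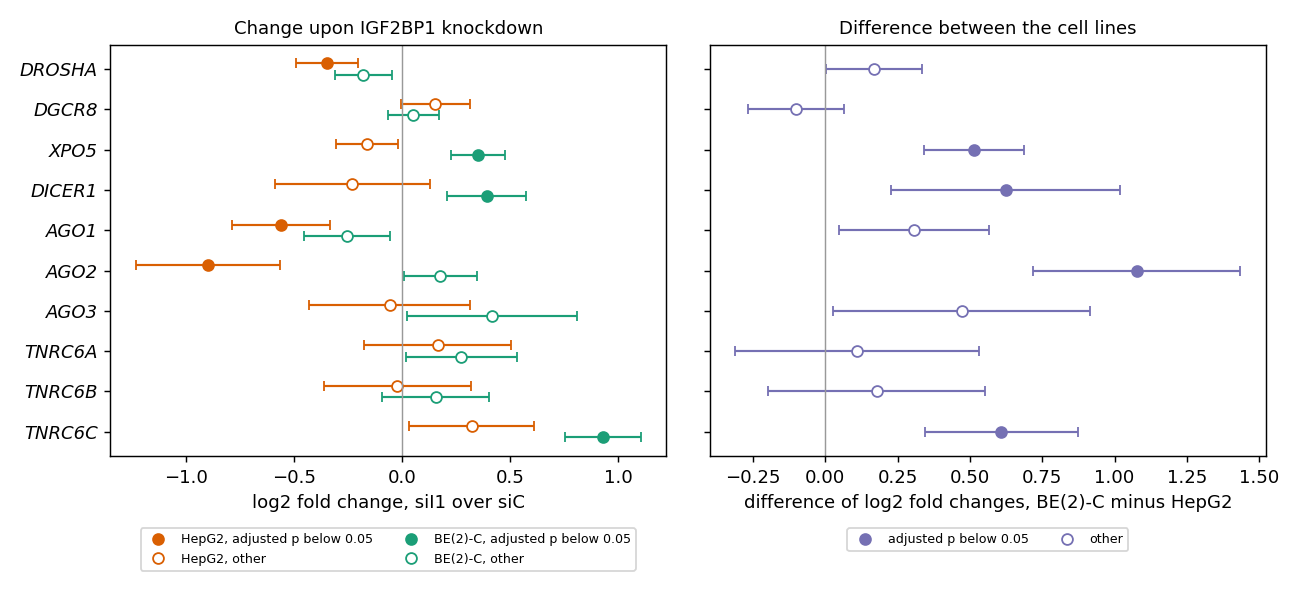
Log2 fold change of siI1 over siC (horizontal axis) for each of the 10 members in HepG2 and BE(2)-C, with 95% intervals from limma, filled where called, and beside it the difference of the changes, BE(2)-C minus HepG2. AGO2 lies at -0.90 in HepG2 and 0.18 in BE(2)-C, and TNRC6C at 0.32 and 0.93.

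DROSHA (ENSG00000113360, chr5:31400494-31532196), the nuclease of the Microprocessor, stood at 7.73, 7.54 and 7.96 FPKM in HepG2 siC and at 6.05, 5.95 and 6.17 FPKM in siI1. All 3 siI1 libraries were below all 3 siC libraries. It fell by 0.35 in HepG2 (SE 0.06, limma adjusted p = 0.0033). BE(2)-C held it at 17.8, 17.1 and 17.6 FPKM with siC and 16.5, 15.3 and 14.7 FPKM with siI1. These groups did not overlap either, yet the change of -0.18 was not called (95% interval -0.31 to -0.05, limma adjusted p = 0.051), and without siI1 replicate 1 it was -0.23 and called. It was also called by limma voom (-0.18), with a filter of at least 1 FPKM and with libraries scaled to equal sums (-0.16). The difference between the lines was 0.17 (95% interval 0.00 to 0.33, limma adjusted p = 0.098), and with equal sums it was 0.35 and called.

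DGCR8 (ENSG00000128191, chr22:20080221-20111877), which recognizes the primary hairpins, ranged from 5.26 to 5.55 FPKM in HepG2 siC and 5.72 to 6.14 FPKM in siI1. Its change was 0.15 (95% interval -0.01 to 0.31), not called; it was 0.24 and called with libraries centred on their median and -0.012 with libraries scaled to equal sums. In BE(2)-C it was 0.05 (95% interval -0.07 to 0.17), not called. There it was 0.029 without siI1 replicate 3 and 0.090 with median centring, also not called. With DROSHA lower, the ratio of DROSHA to DGCR8 in FPKM was 1.44 (SD 0.07, n = 3) in HepG2 siC and 1.01 (SD 0.06, n = 3) in siI1. For BE(2)-C it was 1.90 (SD 0.08, n = 3) and 1.62 (SD 0.13, n = 3). The library values of the ratio did not overlap between siC and siI1 in either line.

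The DGCR8 mRNA itself holds hairpins that the Microprocessor cuts, as is known, and RefSeq (GRCh38.p14) places these mature microRNAs in its exons, shown because they lie within a member; capitals mark the seed, bases 2 to 8:
miR-3618: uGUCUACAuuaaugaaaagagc
miR-1306-5p: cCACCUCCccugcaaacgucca
miR-1306-3p: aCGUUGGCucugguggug
The pair of miR-1306 arms lies in the coding part and miR-3618 outside it. Their levels are not in these poly-A data.

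The promoters of DROSHA and AGO1, which fell together in HepG2, and of XPO5, which rose in BE(2)-C, are shown from 250 bases before to 50 after the RefSeq start (GRCh38.p14), each on its own strand. In all, 9 of 10 members matched the table, with 16 windows of the 35116, and the match was by symbol. AGO2 had no window, and 9 of the 16 belong to DICER1 (5, of which 2 overlap) and TNRC6C (4). The AGO1 window lies inside the gene span given below for AGO1, so its RefSeq start is not the start of that span. Both strands were searched for 4 motifs after the changes had been seen, and capitals mark matches to the GC box (GGGCGG) and the CCAAT box (CCAAT):
DROSHA, chr5:31532044-31532343, minus strand: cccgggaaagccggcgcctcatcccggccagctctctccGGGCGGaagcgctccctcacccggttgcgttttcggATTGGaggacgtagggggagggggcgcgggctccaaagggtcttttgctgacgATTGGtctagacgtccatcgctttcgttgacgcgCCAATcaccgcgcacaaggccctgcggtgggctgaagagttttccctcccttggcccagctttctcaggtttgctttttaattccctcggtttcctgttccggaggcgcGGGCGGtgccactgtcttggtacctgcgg
AGO1, chr1:35882959-35883258, plus strand: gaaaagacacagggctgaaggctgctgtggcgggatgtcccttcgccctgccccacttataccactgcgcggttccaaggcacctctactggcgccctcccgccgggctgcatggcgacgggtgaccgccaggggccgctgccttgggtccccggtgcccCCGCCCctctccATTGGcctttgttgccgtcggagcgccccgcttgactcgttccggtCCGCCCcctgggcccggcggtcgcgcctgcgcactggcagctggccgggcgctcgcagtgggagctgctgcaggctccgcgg
XPO5, chr6:43575989-43576288, minus strand: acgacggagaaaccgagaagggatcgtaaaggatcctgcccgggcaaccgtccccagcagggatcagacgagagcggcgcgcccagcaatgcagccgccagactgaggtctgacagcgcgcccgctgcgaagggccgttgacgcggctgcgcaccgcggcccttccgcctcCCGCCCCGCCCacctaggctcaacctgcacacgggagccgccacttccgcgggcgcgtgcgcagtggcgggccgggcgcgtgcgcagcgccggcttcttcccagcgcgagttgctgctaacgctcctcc
The DROSHA window holds 2 GC boxes and 3 CCAAT boxes, the AGO1 window 2 and 1, and the XPO5 window 2 GC boxes that share a base and 0 CCAAT boxes. Among all promoter windows, 45.0% hold a GC box and 34.6% a CCAAT box, against 12 and 8 of the 16 member windows, which are not independent. The TATA box (TATAAA) and the E2F motif (TTTNGCGC) were in 0 of the 16 member windows, and in 11.5% and 1.79% of all windows. A match describes letters only.

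XPO5 (ENSG00000124571, chr6:43522334-43576038), the exporter of precursors, stood at 21.7, 20.1 and 21.1 FPKM in BE(2)-C siC and at 28.2, 26.1 and 26.0 FPKM in siI1. No siC value reached the siI1 values. It rose by 0.35 in BE(2)-C (SE 0.05, limma adjusted p = 0.0036). In HepG2 it stood at 13.5, 12.8 and 12.8 FPKM with siC and 12.3, 11.2 and 11.4 FPKM with siI1. All siI1 values were below all siC values, but the change of -0.16 was not called (95% interval -0.31 to -0.02, limma adjusted p = 0.064). Without siI1 replicate 1 it was -0.20 and called; it was -0.33 and called with libraries scaled to equal sums and -0.072 with median centring. The change in BE(2)-C exceeded that in HepG2 by 0.51 (SE 0.08, limma adjusted p = 0.00038). In GENCODE release 44, 348 bases (4.10%) of the XPO5 exons are overlapped by exons of POLR1C on the other strand. By limma, POLR1C was at -0.29 in HepG2 (adjusted p = 0.060) and 0.20 in BE(2)-C (adjusted p = 0.090), not called, with the same signs as XPO5. The libraries were strand-specific, but whether reads were counted by strand is not stated, and the part of the overlap was not tested.

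DICER1 (ENSG00000100697, chr14:95086228-95158010), which cuts precursors to duplexes, stood at 6.17, 6.71 and 7.31 FPKM in BE(2)-C siC and at 8.48, 9.29 and 8.75 FPKM in siI1. The groups did not overlap. It rose by 0.39 in BE(2)-C (SE 0.08, limma adjusted p = 0.010), which does not pass at a threshold of 0.01. In HepG2 it stood at 10.3, 8.79 and 10.4 FPKM with siC and 10.5, 7.44 and 7.34 FPKM with siI1. Replicate 1 of siI1 was above all siC libraries and the other siI1 libraries were below them. The change of -0.23 was not called (95% interval -0.59 to 0.13, limma adjusted p = 0.26), and without that library it was -0.40 and called. Leaving out siI1 replicate 2 or 3 instead gave -0.15 and -0.14, not called. The difference between the lines was 0.62 (SE 0.18, limma adjusted p = 0.018), and it also fails at 0.01.

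AGO2 (ENSG00000123908, chr8:140520156-140635633), the Argonaute that can cut a target, stood at 5.87, 5.46 and 6.35 FPKM in HepG2 siC and at 3.80, 2.65 and 2.96 FPKM in siI1. All siI1 libraries were below all siC libraries, the closest being replicate 1. It fell by 0.90 in HepG2 (SE 0.14, limma adjusted p = 0.0022), the largest change of a member there, and by 1.04 without replicate 1. Its BE(2)-C levels were 9.13, 9.61 and 10.8 FPKM with siC and 10.7, 11.2 and 11.4 FPKM with siI1. The siC replicate 3 lay within the siI1 range, and the change of 0.18 was not called (95% interval 0.01 to 0.34, limma adjusted p = 0.11). Without that library it was 0.24 and called, as it was by limma voom (0.18). The difference between the lines was 1.08 (SE 0.16, limma adjusted p = 0.00036).

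AGO1 (ENSG00000092847, chr1:35869808-35930532) stood at 4.22, 3.75 and 4.31 FPKM in HepG2 siC and at 2.91, 2.65 and 2.66 FPKM in siI1. The groups did not overlap. It fell by 0.56 in HepG2 (SE 0.10, limma adjusted p = 0.0032). The BE(2)-C range was 2.71 to 2.93 FPKM with siC and 2.29 to 2.42 FPKM with siI1, a change of -0.26 that was not called (95% interval -0.46 to -0.06, limma adjusted p = 0.063), though it was by limma voom (-0.26), without the trend and with a filter of at least 1 FPKM. The difference of 0.31 between the lines was not called (95% interval 0.05 to 0.57, limma adjusted p = 0.059), but it was without HepG2 siC replicate 2 (0.37) or siI1 replicate 1 (0.35), by limma voom (0.32) and with equal sums (0.49).

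AGO3 (ENSG00000126070, chr1:35930718-36072500) begins 185 bases after AGO1 ends, and AGO1 begins 11917 bases after the end of AGO4, all on the plus strand. Of these neighbours limma on log2 FPKM called AGO1 in HepG2, and AGO3 and AGO4 in neither line. AGO3 ranged from 1.06 to 1.15 FPKM in HepG2 siC and 0.974 to 1.22 FPKM in siI1 (change -0.06, 95% interval -0.43 to 0.32). The change was -0.15 without siI1 replicate 1, -0.0059 without siI1 replicate 2 and -0.014 without siI1 replicate 3. It was -0.028 without siC replicate 3, -0.21 with equal sums and 0.027 with median centring, and none of these was called. The BE(2)-C values of AGO3 ranged from 0.510 to 0.517 FPKM with siC and 0.694 to 0.769 FPKM with siI1. The change of 0.41 was not called (95% interval 0.02 to 0.81, limma adjusted p = 0.11). In that line it was called by limma voom (0.48) and without the mean-variance trend (0.41). With pseudocount 1 it was 0.18, not called. The difference of 0.47 was not called (limma adjusted p = 0.086). Without HepG2 siI1 replicate 1 it was 0.57 and called, as it was by limma voom (0.54), without the trend and with equal sums (0.64). Its lowest value over the alternatives was 0.21.

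Summed over AGO1 to AGO4, Argonaute mRNA was 13.8 FPKM (SD 0.76, n = 3) in HepG2 siC and 9.84 FPKM (SD 1.48, n = 3) in siI1, where replicate 1 was highest at 11.5 FPKM. AGO2 made up 42.7% (SD 1.4, n = 3) of it with siC and 31.8% (SD 1.2, n = 3) with siI1. For BE(2)-C the sum was 13.9 FPKM (SD 0.99, n = 3) and 15.1 FPKM (SD 0.38, n = 3), with AGO2 at 70.6% (SD 0.98, n = 3) and 73.6% (SD 0.56, n = 3). AGO4 stood at 19.7% of the sum in HepG2 siC and 29.3% in siI1, while its own change of 0.08 was not called.

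**Figure D3:**
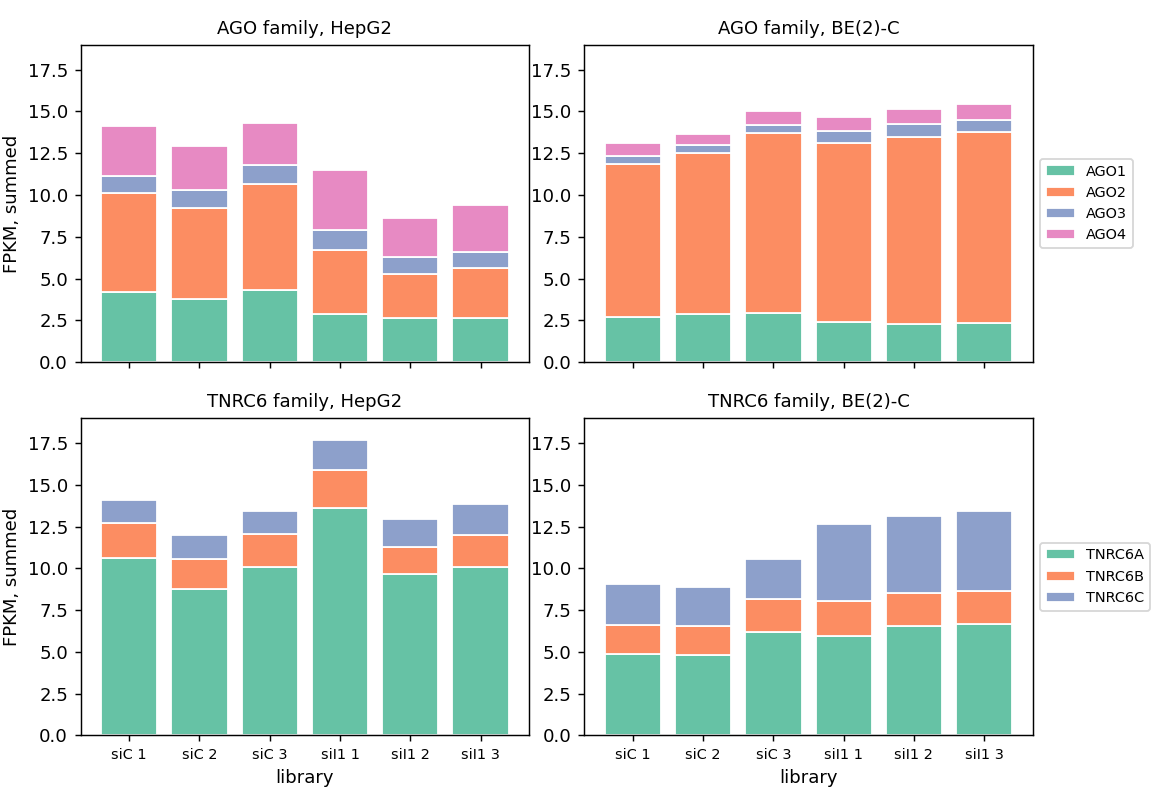
Summed FPKM of the Argonaute and TNRC6 paralogs (vertical axis) in each of the 12 libraries, split by paralog. The HepG2 Argonaute sums are 12.9 to 14.3 with siC and 8.62 to 11.5 with siI1.

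The 3' ends of Argonaute mRNAs were searched for the match to the let-7 seed (CTACCTC), after the changes had been seen, because LIN28B, which blocks let-7 maturation, was among the partners. Of 10 members, 3 hold it in the 3' untranslated region of the canonical GENCODE release 44 transcript: AGO1, AGO2 and AGO3, against 9.71% of 19229 protein-coding transcripts. These 3 regions have 10925, 11888 and 16755 bases, and that of TNRC6B, with 12567 bases, holds 0 matches. That of AGO4, an Argonaute outside the member list, has 4285 bases and also holds 0 matches. AGO2 holds 2 matches, AGO1 and AGO3 hold 1 each, and the region of IGF2BP1, with 6701 bases, holds 4. The 9.71% covers regions of every length, and no share for regions of similar length is given. The part of length in these matches was not tested. The match of AGO1 and that of AGO3 are shown with capitals for the seed match and, in AGO3, the A after it:
AGO1: cctccttttctccttattcctcCTACCTCc
AGO3: gagtggtaatacctgtcctcacCTACCTCA
A match is not a measured site.

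TNRC6C (ENSG00000078687, chr17:77958703-78108822), a scaffold that binds Argonaute and recruits deadenylases, stood at 2.49, 2.30 and 2.43 FPKM in BE(2)-C siC and at 4.63, 4.62 and 4.76 FPKM in siI1. The siI1 values lay close together and well above the siC values. It rose by 0.93 in BE(2)-C (SE 0.07, limma adjusted p = 0.00037), the largest change of a member in that line. In HepG2 it stood at 1.43, 1.44 and 1.32 FPKM with siC and 1.79, 1.66 and 1.84 FPKM with siI1. All siI1 values were above all siC values, but the change of 0.32 was not called (95% interval 0.03 to 0.61, limma adjusted p = 0.070). It was called with median centring (0.41), without the trend (0.32) and by limma voom (0.34), and was 0.16 with equal sums, not called. The difference between the lines was 0.61 (SE 0.12, limma adjusted p = 0.0021). In GENCODE release 44, 1426 bases (12.3%) of the TNRC6C exons are overlapped by exons of TMC6 on the other strand. By limma, TMC6 was -0.88 in HepG2 (adjusted p = 0.00044) and -0.42 in BE(2)-C (adjusted p = 0.068), signs opposite to those of TNRC6C, and the part of this overlap was not tested either. Other overlaps lie in DGCR8 (AC006547.2, 526 bases, and TRMT2A, 3 bases), AGO1 (AL139286.2, 396 bases), AGO3 (AL138787.2, 86 bases) and DICER1 (DICER1-AS1, 80 bases), and their part was not tested. AC006547.2 was at 0.73 in HepG2 and 0.23 in BE(2)-C, TRMT2A at -0.01 and -0.06 and AL139286.2 at -0.90 and -0.93, none called, and AL138787.2 was not tested. DICER1-AS1 rose by 1.05 in HepG2 (limma adjusted p = 0.0071) and was at 0.64 in BE(2)-C, not called.

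TNRC6A (ENSG00000090905, chr16:24610209-24827632) and TNRC6B (ENSG00000100354, chr22:40044817-40335808), paralogs of the same function, were not called in either line by limma on log2 FPKM. TNRC6A ranged from 8.77 to 10.6 FPKM in HepG2 siC and 9.64 to 13.6 FPKM in siI1 (change 0.16, 95% interval -0.18 to 0.50). That change was 0.0098 without siI1 replicate 1, 0.085 without siC replicate 2, 0.26 without siI1 replicate 2 and -0.0017 with equal sums, none called. Its BE(2)-C values ranged from 4.83 to 6.19 FPKM and 5.97 to 6.69 FPKM (change 0.27, 95% interval 0.02 to 0.53), and the change was called without siC replicate 3, at 0.39, and by limma voom, at 0.28. TNRC6B ranged from 1.66 to 2.25 FPKM in HepG2 and 1.70 to 2.05 FPKM in BE(2)-C, with changes of -0.02 (95% interval -0.36 to 0.32) in HepG2 and 0.15 (95% interval -0.09 to 0.40) in BE(2)-C. In HepG2 its change was -0.13 without siI1 replicate 1, 0.0062 without siC replicate 1 and 0.075 without siI1 replicate 2. It was -0.18 with equal sums and 0.064 with median centring, and none of these was called.

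The TNRC6 sum was 9.51 FPKM (SD 0.93, n = 3) in BE(2)-C siC and 13.1 FPKM (SD 0.40, n = 3) in siI1. TNRC6C made up 25.4% (SD 2.3, n = 3) of it with siC and 35.7% (SD 0.78, n = 3) with siI1. In HepG2 the sum was 13.2 FPKM (SD 1.1, n = 3) with siC and 14.8 FPKM (SD 2.5, n = 3) with siI1, where replicate 1 stood at 17.7 FPKM and the others, at 13.0 and 13.8 FPKM, lay between the lowest and highest siC libraries. TNRC6A made up 74.5% and 74.8% of it.

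**Figure D4:**
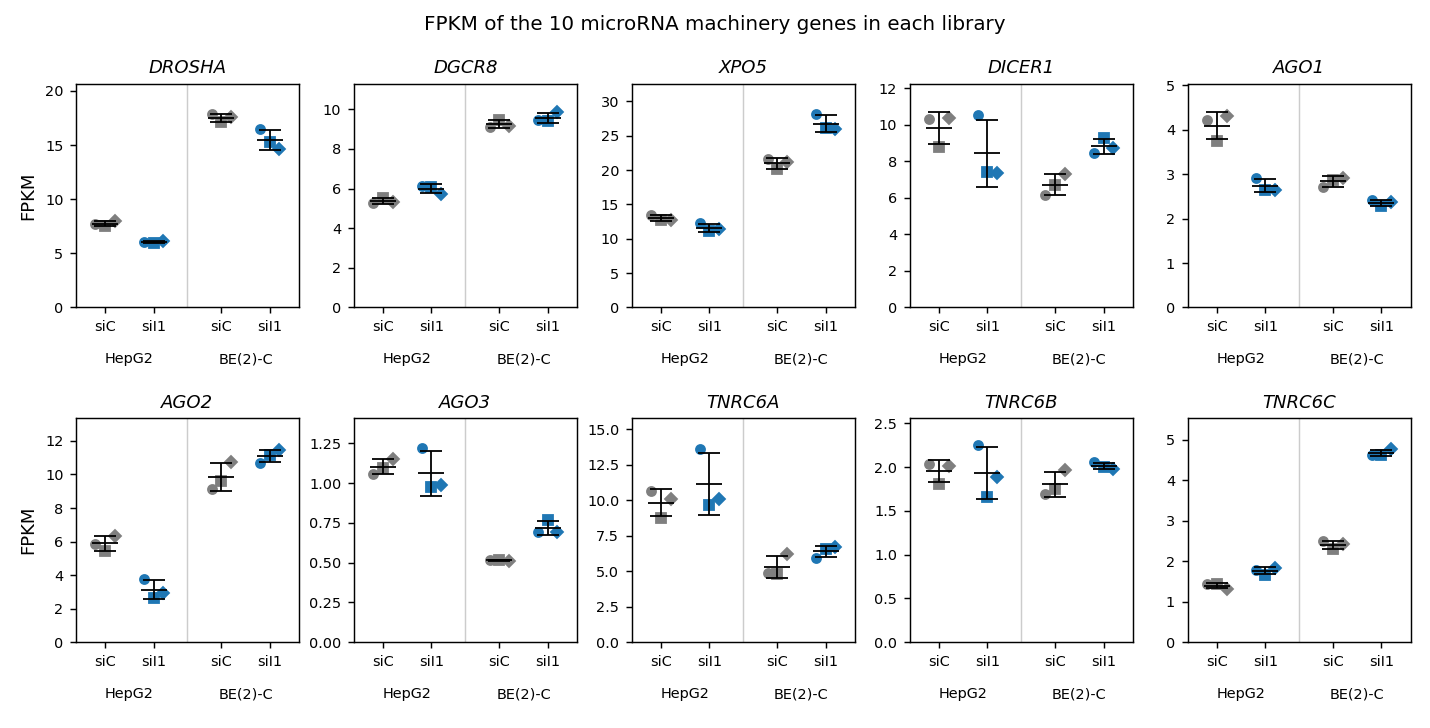
FPKM of each of the 10 members (vertical axes, from 0) in every library of HepG2 and BE(2)-C, with siC and siI1 side by side, a marker shape per replicate, and a bar at each group mean with its SD. AGO2 separates in HepG2, at 5.46 to 6.35 against 2.65 to 3.80, and TNRC6C in BE(2)-C, at 2.30 to 2.49 against 4.62 to 4.76.

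Ordered by mean FPKM in HepG2 siC, the members ran XPO5, TNRC6A, DICER1, DROSHA, AGO2, DGCR8, AGO1, TNRC6B, TNRC6C and AGO3. TNRC6A and DICER1 overlapped in range, as did AGO2 and DGCR8. With siI1 DGCR8 moved ahead of AGO2, and XPO5, TNRC6A and DICER1 overlapped one after another, as did DROSHA with DGCR8, AGO2 with AGO1, and TNRC6B with TNRC6C. In BE(2)-C siC the order was XPO5, DROSHA, AGO2, DGCR8, DICER1, TNRC6A, AGO1, TNRC6C, TNRC6B and AGO3, with overlap between AGO2 and DGCR8 and between DICER1 and TNRC6A. With siI1 TNRC6C moved ahead of AGO1, and no neighbours overlapped. The members' siC levels spanned the 36.8 to 80.5 percentiles of tested genes in HepG2 and the 25.9 to 87.0 percentiles in BE(2)-C.

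Counts of called genes in the lists of partners stand beside the shares of all tested genes, 23.0% lower and 21.9% higher in HepG2, while BE(2)-C had 14.8% called lower and 13.3% called higher. The partners of nuclear processing and export are the helicases DDX5 and DDX17, SRRT, and RAN, which drives exportin-5. In HepG2, 2 of 4 fell (DDX5 by 0.37, RAN by 0.20), and limma called 0 higher, also 0 at an unadjusted p below 0.05 and 0 by limma voom. For BE(2)-C, DDX5 (0.37) and DDX17 (0.30) rose and RAN fell by 0.28. DDX5 differed between the lines by 0.73 (limma adjusted p = 8.9e-05). The list medians were -0.14 and 0.16.

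TARBP2 and PRKRA, which bind DICER1, and AGO4 were not called in either line. TARBP2 changed by 0.23 (95% interval -0.04 to 0.49) in HepG2 and -0.06 (95% interval -0.21 to 0.09) in BE(2)-C. PRKRA stood at 0.13 and -0.02, and AGO4 at 0.08 and 0.26. Limma called 0 of 3 in each line, with 1 (PRKRA, higher in HepG2) at an unadjusted p below 0.05 and 0 by limma voom. The list medians were 0.13 and -0.02.

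Of the 7 listed genes of precursor tailing and decay, 6 were tested. LIN28B, which keeps let-7 precursors from DICER1, stood at 15.3, 14.1 and 15.8 FPKM in HepG2 siC and 7.06, 5.15 and 5.22 FPKM in siI1. It fell by 1.38 in HepG2 (SE 0.13, limma adjusted p = 0.00022) and its change in BE(2)-C was 0.14 (95% interval -0.09 to 0.37). The difference was 1.52 (limma adjusted p = 4.9e-05). ZCCHC6, a uridylating enzyme, fell by 0.47 in HepG2, and PAPD4, an adenylating enzyme, rose by 0.32 in BE(2)-C. Limma called 2 of 6 lower and 0 higher in HepG2 (0 higher at an unadjusted p below 0.05 and 0 by limma voom) and 0 lower and 1 higher in BE(2)-C (0 lower at an unadjusted p below 0.05 and 0 by limma voom). The list medians were -0.17 and 0.11.

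Of 7 chaperones that help load Argonaute, 5 were lower and 1 higher in HepG2, against 23.0% and 21.9% of all tested genes, and for BE(2)-C the counts were again 5 and 1, against 14.8% and 13.3%. PTGES3, the HSP90 co-chaperone p23, fell by 1.01 in HepG2 and by 0.50 in BE(2)-C. FKBP5 fell by 0.94 in HepG2 and rose by 0.24 in BE(2)-C, a difference of 1.19 (limma adjusted p = 1.0e-05). HSP90AA1 was the gene that rose in HepG2, by 0.41, and STIP1 fell by 0.26 in BE(2)-C. The list medians were -0.41 and -0.26.

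Among 15 genes of the CCR4-NOT and PAN2-PAN3 deadenylases, which TNRC6 proteins recruit, and their poly-A binding partners, 4 fell and 4 rose in HepG2, and 1 fell and 5 rose in BE(2)-C. In HepG2 CNOT9 fell by 0.33, CNOT10 fell by 0.46, PABPC1 rose by 0.44 and PAN2 rose by 0.61. CNOT9 fell by 0.13 in BE(2)-C, the list's single lower call there and not called by limma voom, and PABPC1 rose by 0.59 and CNOT6 by 0.32. The list medians were -0.15 and 0.08.

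Of 11 genes of decapping and decay from the 5' end, 6 fell and 2 rose in HepG2, and 2 fell and 2 rose in BE(2)-C. DDX6, the helicase that links the deadenylases to decapping, fell by 0.91 in HepG2, from 13.6 FPKM (SD 0.27, n = 3) to 7.19 FPKM (SD 0.25, n = 3), and DCP2, the decapping enzyme, fell from 9.50 FPKM (SD 0.34, n = 3) to 4.39 FPKM (SD 0.26, n = 3). Their difference between the lines was 0.91 (limma adjusted p = 1.6e-05) and 0.88 (limma adjusted p = 5.9e-05). DCP1B rose in HepG2 (0.68) and in BE(2)-C (0.35), LSM14B rose in HepG2 (0.26) and LSM14A in BE(2)-C (0.25). EDC3 fell by 0.92 and EDC4 by 0.27 in BE(2)-C. The list medians were -0.40 and -0.06.

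The machinery acts on primary transcripts, and 57 non-coding microRNA host transcripts were listed by symbol. In HepG2, 18 were tested, of which 1 fell and 4 rose, and in BE(2)-C, 22 were tested, of which 1 fell and 4 rose, with medians of 0.46 and 0.20. Over all tested genes 23.0% were lower and 21.9% higher in HepG2, 14.8% and 13.3% in BE(2)-C, and the medians were 0.01 and 0.02. Some hosts tested in HepG2 had 0 reads in at least 1 library and few in the others. The host median of 0.46 there thus rests in part on values near the floor. The mature microRNAs that RefSeq places in the hosts named by their p-values are shown, 1 arm of each, with the seed in capitals:
miR-3142: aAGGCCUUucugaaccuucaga
miR-146a-5p: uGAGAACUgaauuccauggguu
miR-210-3p: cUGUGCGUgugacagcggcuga
miR-34a-5p: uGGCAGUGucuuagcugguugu
miR-7-5p: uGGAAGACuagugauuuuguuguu
miR-99a-5p: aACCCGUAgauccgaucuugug
let-7c-5p: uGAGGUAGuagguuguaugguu
miR-125b-5p: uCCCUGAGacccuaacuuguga
miR-600: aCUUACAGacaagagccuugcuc
These seeds all differ, and the let-7c seed is the reverse complement of the match shown for AGO1 and AGO3.

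In HepG2 MIR3142HG, host of miR-3142 and miR-146a, fell by 1.63, from 2.74 FPKM (SD 0.11, n = 3) to 0.819 FPKM (SD 0.07, n = 3). MIR210HG rose by 2.14 on 3 to 38 reads per library, and MIR34AHG rose by 0.55. MIR7-3HG rose by 2.70 in BE(2)-C on 4 to 50 reads per library, and MIR99AHG, host of miR-99a, let-7c and miR-125b, rose by 1.37, from 0.649 FPKM (SD 0.02, n = 3) to 1.83 FPKM (SD 0.07, n = 3). MIR600HG rose by 0.59 in HepG2 and fell by 0.47 in BE(2)-C, and its difference from HepG2 was -1.06 (limma adjusted p = 0.00092). Host RNA in poly-A libraries is not a level of the mature microRNA, which these libraries do not measure. The paper also describes small RNA sequencing of both lines, from cells harvested after seeding, and those data were not used here.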

How the data were processed

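Poly-A RNA of 12 libraries was aligned and counted by the authors (Cutadapt 1.14, HISAT2 2.1.0, SAMtools 1.5, featureCounts 1.5.3 on Ensembl GRCh38.89, edgeR 3.30.3). The deposited values are FPKM of TMM-scaled libraries, 1 table per line. The headers name no unit. It was inferred from the values: multiplied by gene length, each lies on a whole number of library-specific steps (tolerance 0.01), which also recovers reads. The authors' fold change, p and FDR columns were not used. Genes reaching 0.1 FPKM in 3 or more of 6 libraries were tested on log2(FPKM + 0.1) with limma 3.58.1 (R 4.3.3) and a mean-variance trend, at an adjusted p below 0.05. The difference between lines is a contrast over 12 libraries. An exact permutation of 3 against 3 could not go below p = 0.1. Alternatives were pseudocounts 0.01 and 1, no filter, FPKM of at least 1, no trend, 2 rescalings, limma voom, a replicate block, leaving out each library in turn, and a threshold of 0.01. By rule, members, IGF2BP1, AGO4, TARBP2, PRKRA, LIN28B, markers, and per list, line and direction the 2 called genes with the smallest p could be named; microRNA hosts are symbols from MIR to HG. Members and lists were chosen with earlier results of these data known. Checks of library spread, gene length, opposite strands, promoters, let-7 matches and hosted microRNAs were added after the fits were seen. On simulated data the recovery first required was not reached, and the requirement was lowered afterwards, with the test unchanged.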

Additional observations from a re-analysis of the deposited data

Results flagged for a closer look

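The change with IGF2BP1 knockdown differed between the lines for 4 members, by the limma contrast of BE(2)-C minus HepG2. For AGO2 the difference was 1.08, for DICER1 0.62, for TNRC6C 0.61 and for XPO5 0.51. The cell line, the amount of siRNA and the medium cannot be told apart.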

How the results depend on the processing

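The called members in each line and in the difference passed under every alternative at 0.05. At an adjusted p below 0.01 DICER1 did not pass in BE(2)-C or in the difference, and over all genes 2727 were higher in HepG2, 1475 lower and 1139 higher in BE(2)-C, and 2172 higher in the difference. With equal sums 4 members were lower in HepG2, XPO5 being added, as were 5835 of all 19436 genes. Members called higher in HepG2 numbered 1 without the trend, 2 with median centring and 1 with limma voom, beside 4028, 5015 and 4576 of all genes (main 4250). Members called lower in BE(2)-C numbered 2 with FPKM of at least 1 (2829 of all 12337 genes), 1 without the trend (2203 of 18656), 1 with equal sums (2605) and 2 with limma voom, and limma voom called 6 higher. Limma voom called 3329 of all 18656 genes lower and 3201 higher in BE(2)-C. With equal sums 7 members were higher in the difference, as were 4532 of all 15362 genes. There 1 further member was called with pseudocount 1 (3503 of 15362 genes higher) and 1 with FPKM of at least 1 (2992 of 10029). Without the trend 2 further members were called (3240 of 15362). Leaving out 1 library gave 3 to 5 members lower in HepG2 (3469 to 4973 of all genes), and in BE(2)-C 0 to 1 lower (1895 to 2316 of all genes), 3 to 5 higher and 1519 to 2103 of all genes higher (1634, 1564 and 1519 without siI1 replicate 1, 2 or 3). Signs turned for uncalled changes in HepG2: DGCR8 -0.012 and TNRC6A -0.0017 with equal sums, and AGO3 0.027 and TNRC6B 0.064 with median centring. Leaving out 1 library, TNRC6B ran from -0.13 to 0.075, above 0 without siC replicate 1 or siI1 replicate 2. DGCR8 turned in the difference, to 0.082 with equal sums. Equal sums moved the median of all genes by -0.15 in HepG2 and by 0.17 in the difference. With the replicate number as a block all 10 members kept their calls in each comparison; correlations of residuals within a number were -0.01 to 0.06, and the labels do not say that numbers pair libraries. AGO3 had no value in BE(2)-C or in the difference with FPKM of at least 1. The causes were not tested.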

Other observations

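Of 8 interferon response genes, 3 fell and 1 rose in HepG2, where OAS1 fell by 1.74 and IFIT1 rose by 1.09. Of all tested genes 23.0% were lower and 21.9% higher there, and 14.8% and 13.3% in BE(2)-C. In BE(2)-C 6 were tested, and OAS1 fell by 0.35. Limma called 0 higher there, with 1 higher at an unadjusted p below 0.05 and 1 by limma voom. The summed level was 73.5 to 76.0 FPKM in HepG2 siC and 44.3 to 51.6 FPKM in siI1, and 13.5 to 14.1 FPKM in BE(2)-C siC and 12.3 to 13.6 FPKM in siI1. OAS1 differed between the lines by 1.39 (limma adjusted p = 4.8e-06).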
